A study of Mus musculus with 18 samples.

Results

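Heat shock proteins are chaperones, proteins that keep other proteins folded. The genes described here were taken from the deposited count table by symbol: Hspa1a, Hspa1b, Hspa8, Hsph1, Hsp90aa1, Hsp90ab1, Dnajb1, Hspb1, Hspd1 and Hspe1. They are 10 of the 54752 genes in the table, and all 10 were among the 21914 genes with enough counts to test. The products of 8 of them work in the cytosol and nucleus. Hspd1 (HSP60) and Hspe1 (HSP10) encode the mitochondrial chaperonin and its lid, so the set as a whole is not cytosolic, and this pair is described apart.

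The libraries were made from whole liver of 18 male C57BL/6 mice, 1 library per mouse and 6 mice in each of 3 groups, all killed after 12 weeks of treatment. The mice were 6 weeks old at purchase, and the protocol describes 45 mice, 15 per group. Control mice were injected into the abdomen 2 times a week with corn oil, 10 µl per g of body weight, and were given double distilled water by mouth every day. Cirrhosis mice received 10% carbon tetrachloride (CCl4), a solvent that damages the liver, dissolved in corn oil at that volume and schedule, with the same oral water. Cirrhosis-PTH mice received the CCl4 injections and a daily oral dose of Pien Tze Huang (PTH), a traditional Chinese medicine, at 0.25 mg per g from a 50 mg/ml solution. Corn oil was thus common to all groups, no group received PTH without CCl4, and PTH does not stand for parathyroid hormone here. The time between the last injection and the collection of the liver is not given in the sources used here. Libraries held 62482144 to 112294112 counts, of which 31.4% to 60.8% lay on loci that collect ribosomal RNA reads.

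As background, cells make heat shock proteins when unfolded proteins build up, as in heat, poisoning or oxidative damage. Free HSP70 and HSP90 hold the transcription factor HSF1 in check. When damaged proteins occupy these chaperones, HSF1 is released, binds DNA at inverted repeats of the bases GAA and switches on the inducible genes. Client proteins then pass in turn from a J-domain protein (such as Dnajb1) to HSP70, with Hsph1 helping HSP70 to exchange its nucleotide, and some go on to HSP90. The small heat shock protein Hspb1 holds unfolding proteins in a refoldable state and needs no ATP. In liver, Hspa8 and Hsp90ab1 are the constitutive forms of HSP70 and HSP90, while Hspa1a, Hspa1b and Hsp90aa1 are the inducible ones.

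The DNA around the start sites shows where such repeats lie in these genes, and it also shows how alike the 2 inducible HSP70 genes are. The sequences are RefSeq sequences of the mouse build GRCm38.p6, printed 5′ to 3′ on the strand of the gene, with matches to the motif in capitals. The motif searched was GAANNTTC or TTCNNGAA, each of which reads the same on both strands. The first 2 lines are the 250 bases before the start of Hspa1a (chr17:34972157-34972406, minus strand) and of its neighbour copy Hspa1b (chr17:34959239-34959488, minus strand), and the others are 30-base stretches around a match.
Hspa1a: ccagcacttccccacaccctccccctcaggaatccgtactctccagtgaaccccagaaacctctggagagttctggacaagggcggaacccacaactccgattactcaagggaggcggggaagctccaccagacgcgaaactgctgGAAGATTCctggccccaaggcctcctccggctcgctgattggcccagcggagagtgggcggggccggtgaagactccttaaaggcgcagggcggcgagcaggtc
Hspa1b: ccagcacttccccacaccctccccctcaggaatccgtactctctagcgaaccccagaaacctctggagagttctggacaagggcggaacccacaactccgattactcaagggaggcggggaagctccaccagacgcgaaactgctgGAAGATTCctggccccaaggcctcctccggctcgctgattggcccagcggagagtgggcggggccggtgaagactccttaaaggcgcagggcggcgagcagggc
Hspb1, first match: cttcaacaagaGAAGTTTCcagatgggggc
Hspb1, second match: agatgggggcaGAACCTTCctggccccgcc
Hsph1: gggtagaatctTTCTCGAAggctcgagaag
Hspe1: gccacggtccgTTCTAGAACCTTCCGGAAg

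The 250 bases before Hspa1a and Hspa1b differed at 3 positions (98.8% identical), and in both the match began 104 bases before the start site. The Hspb1 stretches lie at chr5:135887791-135887820 and chr5:135887811-135887840 (plus strand), 117 and 97 bases before the start. The Hsph1 stretch lies at chr5:149636351-149636380 (minus strand), 33 or 54 bases before the 2 start sites in the table. The Hspe1 stretch lies at chr1:55088048-55088077 (plus strand), 89 bases before the start of Hspe1, and its matches are 134 to 144 bases before 1 of the 2 Hspd1 start sites, on the other strand. These neighbours point away from each other and their annotated ends overlap, so the same bases precede Hspe1 and that Hspd1 start. The window at the other Hspd1 start held no match.

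Among the 10 genes, 7 had an entry in the promoter table, and Hspa8, Hsp90aa1 and Hsp90ab1 did not. The motif was found in the 300-base window (250 before to 50 after the start) of 6 of these 7 genes, the exception being Dnajb1, and in 17.0% of all 27025 genes in the table. These 6 are not separate sequences, since Hspd1 and Hspe1 hold their matches on the same bases. The windows of Hspa1a and Hspa1b are 98.7% identical. A longer form, in which GAA and TTC alternate over 3 units set 2 bases apart (in either order, which covers both strands, and always holding the shorter motif), was found in Hspd1, Hspe1 and Hsph1 and in 0.662% of all genes. Hspd1 and Hspe1 again share the bases that hold this longer form. In Hsph1 it lies after the start sites, so the stretch printed above for that gene holds the shorter motif alone. A match describes these letters only and is not evidence of HSF1 binding.

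Of the 10 genes, 8 were higher in Cirrhosis than in Control, and none was lower. This is beside 50.5% of all genes tested that passed in either direction with 25.5% higher and 25% lower (edgeR quasi-likelihood test, Benjamini-Hochberg adjusted p under 0.05). In Cirrhosis-PTH against Cirrhosis 8 of the 10 were lower and none was higher, beside 38.6% of all genes in either direction, 20.1% higher and 18.6% lower. In Cirrhosis-PTH against Control none of the 10 passed, beside 8.82% of all genes (6.34% higher and 2.48% lower). Cirrhosis lay wholly above Control for 4 of the 10 genes, beside 15.6% of all genes (14.7% lay wholly below), and Cirrhosis-PTH wholly below Cirrhosis for 5, beside 11% (11.8% wholly above). The median log2 change of the 10 genes was 1.06, -1.20 and -0.20 in these comparisons, in that order, and that of all genes was 0.02, -0.00 and 0.01. The first 2 comparisons share the Cirrhosis libraries, so they are not independent of each other.

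**Figure D1:**
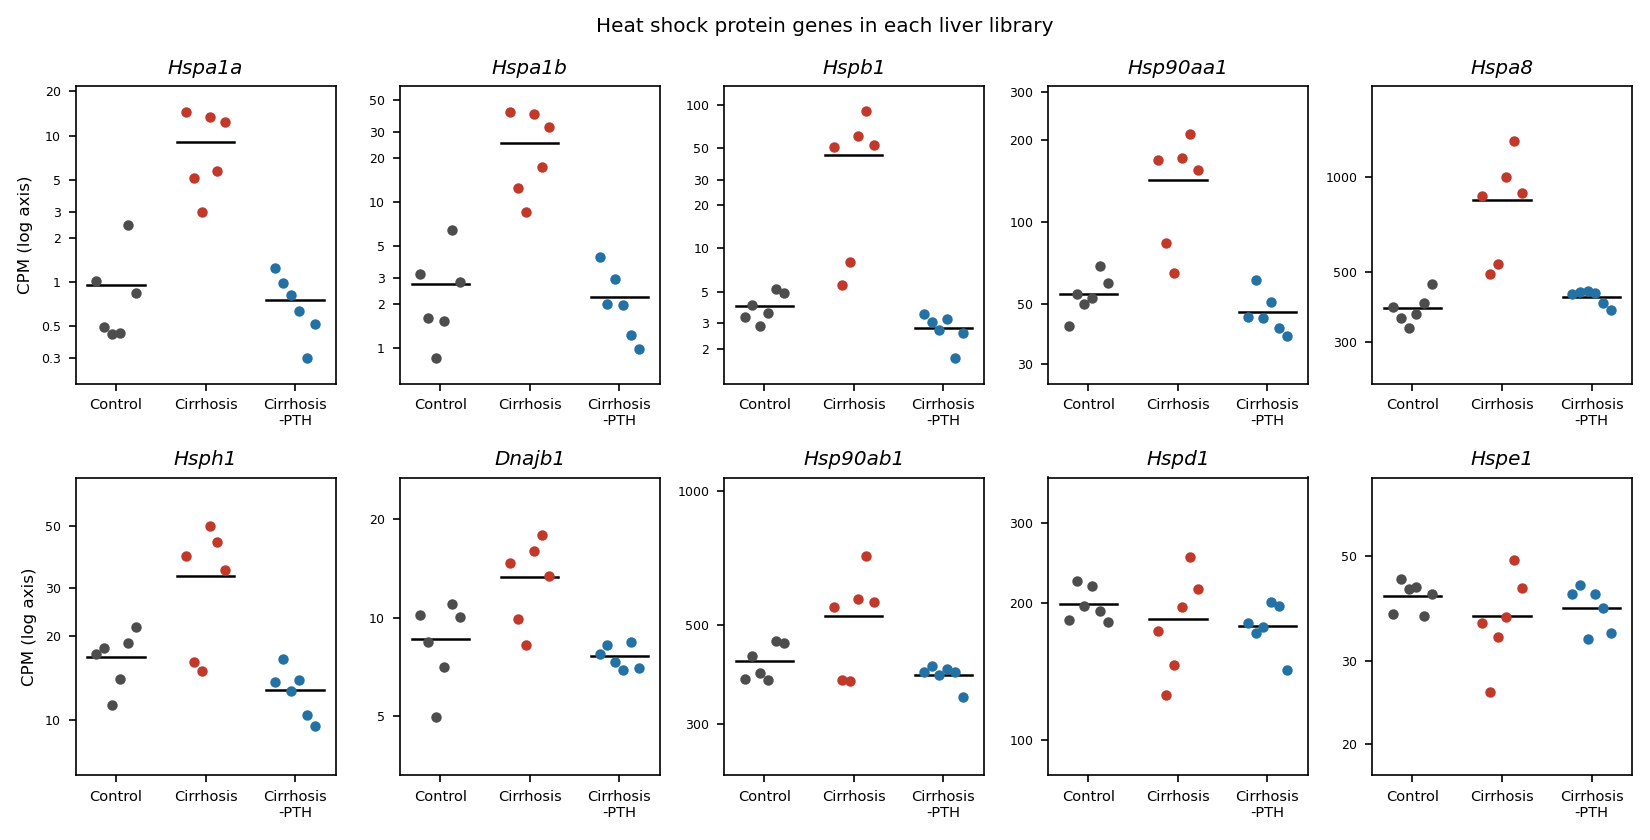
Level of each of the 10 genes in the 18 liver libraries, in CPM (counts scaled to a library size of 1 M) on a log axis that differs between panels, with 1 point per mouse and a bar at the group mean. The 6 Cirrhosis points lie above all Control points for Hspa1a, Hspa1b, Hspb1 and Hspa8, and the groups overlap for Hspd1 and Hspe1.

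**Figure D2:**
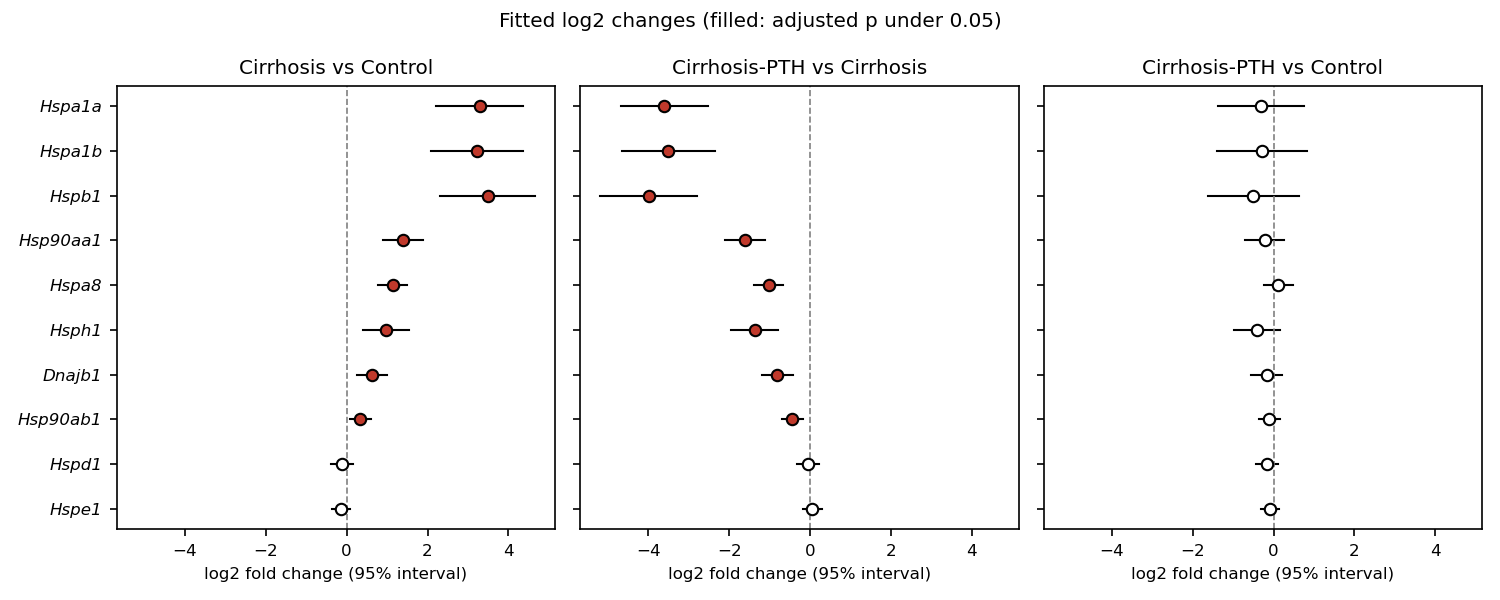
Fitted log2 fold change of each gene (point) with its 95% confidence interval (line) in the 3 comparisons, filled where the adjusted p is under 0.05. The 8 filled genes of the left panel are the filled genes of the middle panel, on the other side of 0, and no gene is filled in the right panel.

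Hspa1a and Hspa1b encode the stress-inducible HSP70, with protein products that are nearly the same, and are single-exon genes at chr17:34969190-34972156 and chr17:34956436-34959238 (GRCm38, minus strand). Hspa1a was at 0.440, 0.661 and 2.45 CPM (lowest, median and highest library) in Control, at 2.98, 9.06 and 14.5 CPM in Cirrhosis and at 0.302, 0.724 and 1.25 CPM in Cirrhosis-PTH. Hspa1b was at 0.863, 2.24 and 6.43 CPM in Control, at 8.52, 24.8 and 41.2 CPM in Cirrhosis and at 0.991, 1.99 and 4.18 CPM in Cirrhosis-PTH. Every Cirrhosis library lay above every library of both other groups for both genes, and Control replicate 7 was the highest library outside Cirrhosis.

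The mean of Hspa1a was 0.945 ± 0.772 CPM in Control, 9.02 ± 4.96 CPM in Cirrhosis and 0.748 ± 0.339 CPM in Cirrhosis-PTH (SD, n = 6 each, as for all means below). Its log2 change was 3.29 ± 0.51 (SE; adjusted p = 3.2e-05) in Cirrhosis against Control and -3.60 ± 0.51 (adjusted p = 1.9e-05) in Cirrhosis-PTH against Cirrhosis. Hspa1b changed by 3.22 ± 0.54 (adjusted p = 0.00010) and -3.51 ± 0.54 (adjusted p = 7.1e-05). Without Control replicates 7 and 8 together the changes in Cirrhosis against Control were larger, 3.97 for Hspa1a and 3.85 for Hspa1b. With Hspb1 these were the genes of the set that changed by at least 3 on the log2 scale, 3 of 10 in each comparison, beside 2.88% of all genes that rose so far in Cirrhosis and 0.735% that fell so far in Cirrhosis-PTH.

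Counts of these copies cannot be fully told apart. The longest run of identical bases between their transcripts was 638 bases, and 1350 of the 2704 windows of 100 bases in Hspa1b (49.9%) occur unchanged in Hspa1a. The ratio of Hspa1a to Hspa1b counts was 0.341 in Control, against 0.360 in Cirrhosis and 0.342 under PTH (geometric means), and no difference between groups passed an exact permutation test (adjusted p from 0.76 to 0.98). This ratio and those below were chosen after the values were seen, so their p-values are descriptions and no independent support. With the counts of both copies summed the log2 changes were 3.23 ± 0.53 (adjusted p = 9.3e-05) and -3.53 ± 0.54 (adjusted p = 6.2e-05). Hspa8 and Hspa1b shared no run longer than 23 bases and Hsp90aa1 and Hsp90ab1 none longer than 33, so no window of 100 bases is common to them.

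Hspa8 (HSC70, chr9:40800984-40810087) is the constitutive HSP70, which folds new proteins and uncoats vesicles. It was at 331, 376 and 457 CPM (lowest, median, highest) in Control, at 490, 880 and 1296 CPM in Cirrhosis and at 377, 426 and 435 CPM in Cirrhosis-PTH. The 6 Cirrhosis libraries again lay above all others, with replicates 2 and 3 near 500 CPM and the other 4 at 870 CPM or more. Hspa8 rose by 1.15 ± 0.17 on the log2 scale in Cirrhosis (adjusted p = 1.2e-05) and fell by 1.03 ± 0.17 in Cirrhosis-PTH against Cirrhosis (adjusted p = 6.4e-05). Its log2 change was smaller than that of Hspa1b, but its level was far higher. The mean rose from 382 ± 43.5 CPM to 846 ± 302 CPM. The ratio of Hspa1b to Hspa8 was 0.00589 in Control, against 0.0268 in Cirrhosis and 0.00478 under PTH. Its log2 value differed by 2.19 in Cirrhosis against Control (two-sided exact permutation test, adjusted p = 0.019) and by -2.49 in Cirrhosis-PTH against Cirrhosis (exact adjusted p = 0.0076). The groups overlapped, since the ratios of Cirrhosis replicates 3 and 5 lay below that of Control replicate 7, the highest Control library.

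Hsph1 (HSP105/HSP110, chr5:149614287-149636376) resets HSP70 by exchanging its nucleotide and helps it to pull apart aggregates. It was at 11.3, 17.7 and 21.6 CPM in Control, at 15.0, 37.0 and 49.9 CPM in Cirrhosis and at 9.47, 13.2 and 16.6 CPM in Cirrhosis-PTH. In Cirrhosis 4 libraries lay above all Control and Cirrhosis-PTH libraries, while replicates 2 and 3 lay within both. Hsph1 rose by 0.97 ± 0.27 (log2, adjusted p = 0.0061) and fell by 1.37 ± 0.27 (adjusted p = 0.00061).

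Dnajb1 (HSP40, chr8:83608193-83612653) hands clients to HSP70 and stimulates its ATPase. It was at 4.98, 9.22 and 11.01 CPM in Control, at 8.28, 14.02 and 17.8 CPM in Cirrhosis and at 6.92, 7.55 and 8.43 CPM in Cirrhosis-PTH. Cirrhosis replicates 2 and 3 were within the Control range, and the other 4 were above it. Dnajb1 rose by 0.63 ± 0.18 (log2, adjusted p = 0.0061) in Cirrhosis and fell by 0.81 ± 0.18 (adjusted p = 0.0012) in Cirrhosis-PTH against Cirrhosis.

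Hsp90aa1 (chr12:110690605-110702728) is the inducible and Hsp90ab1 (chr17:45567775-45573271) the constitutive HSP90, which matures kinases and steroid receptors. Hsp90aa1 was at 41.3, 53.5 and 69.1 CPM in Control, at 65.0, 162 and 211 CPM in Cirrhosis and at 38.2, 44.5 and 61.3 CPM in Cirrhosis-PTH. Hsp90ab1 was at 376, 407 and 460 CPM in Control, at 374, 556 and 714 CPM in Cirrhosis and at 345, 391 and 404 CPM in Cirrhosis-PTH. For Hsp90aa1 only Cirrhosis replicate 3 fell inside the Control range and none fell inside the Cirrhosis-PTH range. For Hsp90ab1 replicates 2 and 3 were at or just below the lowest Control library and the other 4 were above the highest.

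Hsp90aa1 rose by 1.39 ± 0.23 (log2, adjusted p = 8.5e-05) and fell by 1.61 ± 0.24 (adjusted p = 2.9e-05). Hsp90ab1 changed less, by 0.34 ± 0.12 (adjusted p = 0.026) and -0.44 ± 0.12 (adjusted p = 0.0070). The call of Hsp90ab1 in Cirrhosis against Control was lost without any 1 of Control replicates 1, 3 and 6 or Cirrhosis replicates 4, 5 and 6 (adjusted p from 0.051 to 0.089), and then 7 of the 10 genes passed. The HSP90 isoforms therefore changed by different amounts within each library. Hsp90aa1 counts were 0.131 of Hsp90ab1 counts in Control, against 0.258 in Cirrhosis and 0.1196 under PTH. The log2 ratio differed by 0.98 and by -1.11 (both exact permutation adjusted p = 0.0076), with no overlap between Cirrhosis and either other group. The pair was chosen with these values known, and any ratio without overlap between 2 groups gets this same p here.

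Hspb1 (HSP25, the mouse form of HSP27, chr5:135887919-135889563) had the largest fitted change of the 10 genes in both comparisons, with an interval that overlaps those of Hspa1a and Hspa1b. It was at 2.88, 3.79 and 5.20 CPM in Control, at 5.52, 51.4 and 89.7 CPM in Cirrhosis and at 1.72, 2.89 and 3.47 CPM in Cirrhosis-PTH. In Cirrhosis 4 libraries lay between 50.9 and 89.7 CPM, while replicate 2 at 5.52 CPM and replicate 3 at 8.08 CPM stood just above the Control range. Its mean of 44.4 ± 32.3 CPM in Cirrhosis against 3.98 ± 0.907 CPM in Control and 2.80 ± 0.620 CPM in Cirrhosis-PTH thus describes no single library well. The log2 changes were 3.49 ± 0.55 (adjusted p = 6.4e-05) and -3.99 ± 0.56 (adjusted p = 3.1e-05).

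Hspd1 (chr1:55077835-55088243) and Hspe1 (chr1:55088132-55091307) form the chamber in which proteins fold after import into mitochondria. Hspd1 was at 182, 195 and 224 CPM in Control, at 125, 185 and 252 CPM in Cirrhosis and at 143, 179 and 201 CPM in Cirrhosis-PTH. Hspe1 was at 37.3, 42.1 and 44.7 CPM in Control, at 25.7, 36.6 and 49.0 CPM in Cirrhosis and at 33.3, 40.2 and 43.4 CPM in Cirrhosis-PTH. The Cirrhosis libraries ran both above and below the Control range, and neither gene passed in any comparison.

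The log2 change in Cirrhosis against Control was -0.11 (95% interval -0.38 to 0.16, adjusted p = 0.51) for Hspd1 and -0.14 (95% interval -0.37 to 0.09, adjusted p = 0.32) for Hspe1. In Cirrhosis-PTH against Cirrhosis it was -0.05 (interval -0.32 to 0.22, adjusted p = 0.80) and 0.05 (interval -0.18 to 0.29, adjusted p = 0.75). These intervals leave out rises as large as those of Hspa8. Hspa8 counts were 1.91 times those of Hspd1 in Control, 4.44 times in Cirrhosis and 2.34 times under PTH, and Cirrhosis overlapped neither other group (exact permutation adjusted p = 0.0076 for both differences). Hspd1 stayed at 4.84, 4.91 and 4.59 times Hspe1 in Control, Cirrhosis and Cirrhosis-PTH. The 3-unit motif printed above lies before the start of Hspe1 and before 1 of the 2 start sites of Hspd1, inside the annotated span of Hspd1, and the levels of these genes were not shown to differ between groups. Reads of Hspd1 can also align to processed pseudogenes, of which Hspd1-ps3 held 244 to 2003 counts per library.

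**Figure D3:**
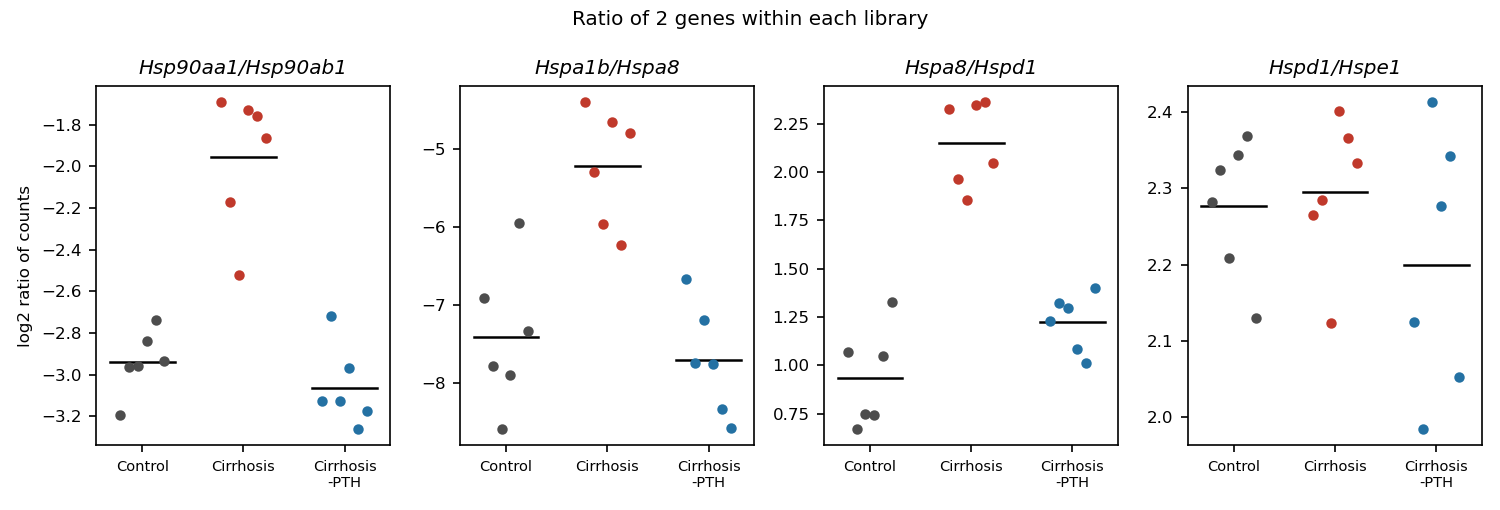
Log2 ratio of the counts of 2 genes within each library (1 point per mouse, bar at the group mean). Cirrhosis lies apart from both other groups for Hsp90aa1/Hsp90ab1 and Hspa8/Hspd1, overlaps Control for Hspa1b/Hspa8, and overlaps both for Hspd1/Hspe1.

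Set per length, as CPM per kb of annotated exon, the order of the genes changed with the groups. In Control Hsp90ab1 was highest at 138 CPM per kb, followed by Hspa8 at 88.9, Hspd1 at 75.5, Hspe1 at 27.9 and Hsp90aa1 at 13.9. The small and inducible genes were lowest there, with Hspb1 at 3.86, Dnajb1 at 2.69, Hsph1 at 2.33, Hspa1b at 0.982 and Hspa1a at 0.318 CPM per kb. Hspa8 and Hspd1 overlapped between Control libraries, and from Hspb1 down each gene overlapped the next. In Cirrhosis Hspa8 led at 197 CPM per kb, and Hsp90ab1 at 175 was within its spread. Hspb1 rose there from sixth to the fourth place at 43.0 CPM per kb, with an SD wider than its distance to Hsp90aa1 at 36.3 CPM per kb. In Cirrhosis-PTH the order was that of Control, from Hsp90ab1 at 129 and Hspa8 at 96.5 CPM per kb down to Hspb1 at 2.71 and Hspa1a at 0.252 CPM per kb.

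**Figure D4:**
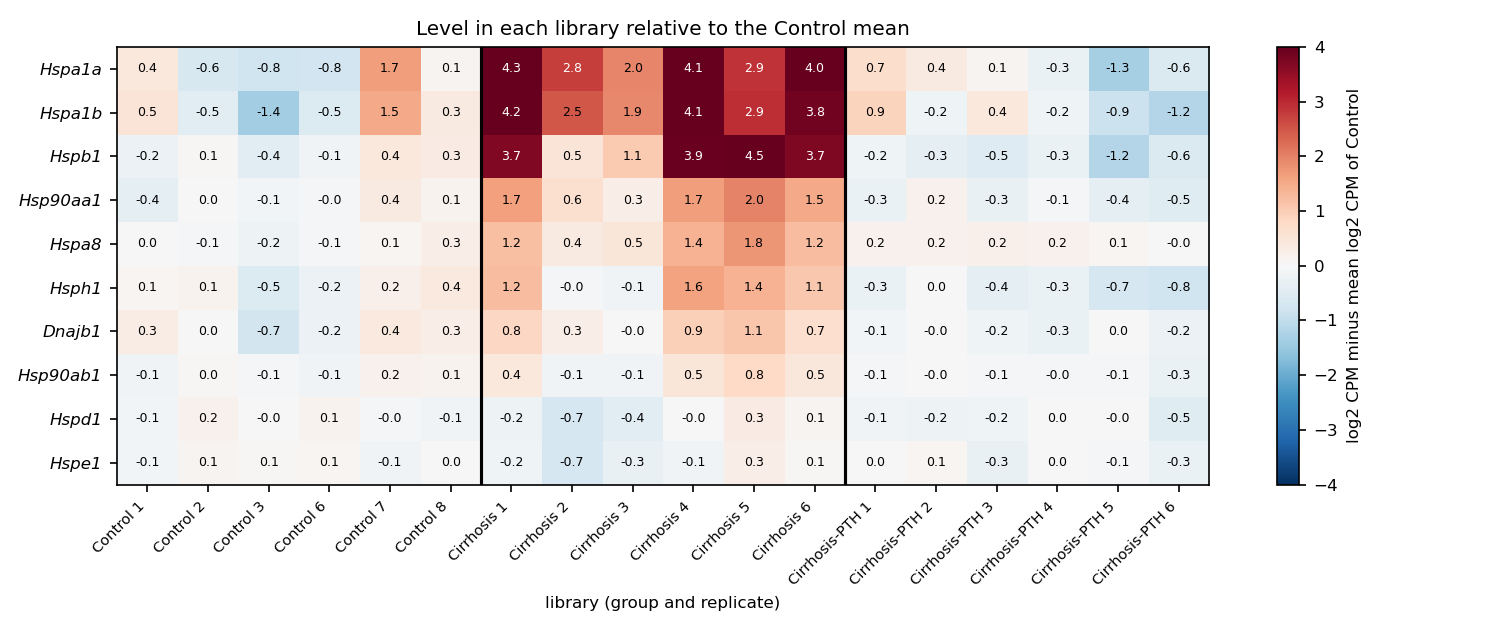
Log2 level of each gene in each library relative to the mean log2 level in Control, with the value in each cell. Cirrhosis replicates 2 and 3 are paler than the other 4 Cirrhosis columns in every row from Hspa1a to Hsp90ab1, and the Cirrhosis-PTH columns are close to the Control columns.

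The Cirrhosis group was not uniform. Replicates 2 and 3 were the 2 lowest of the 6 Cirrhosis libraries for all 10 genes, mitochondrial pair included, and replicate 5 was the highest for 7. The summed level of the 10 genes was 1150 CPM in replicate 2 and 1192 CPM in replicate 3, while the remaining 4 held 1958 to 2697 CPM. The sum was 1030 to 1237 CPM in Control and 958 to 1146 CPM in Cirrhosis-PTH. It mostly reflects the abundant Hspa8, Hsp90ab1 and Hspd1, and single genes differed. In replicates 2 and 3, Hspa1a was 6.74 and 3.90 times its geometric mean in Control, and Hspa1b 5.56 and 3.80 times. Hsph1 was at 0.974 and 0.907 times its own. The highest Cirrhosis library was 16.3 times the lowest for Hspb1, 4.88 times for Hspa1a, 2.65 times for Hspa8 and 1.90 times for Hspe1. For Hspa8 the SD of log2 CPM was 0.54 in Cirrhosis, 0.16 in Control and 0.08 in Cirrhosis-PTH. In Control replicate 3 was lowest for 6 genes and replicate 7 was highest for 6, but Hspe1 was lowest in replicate 7. In Cirrhosis-PTH replicate 6 was among the 2 lowest for all 10.

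Some other readouts of these livers followed this order of libraries and some did not. The summed level of 18 immediate early genes was lowest in Cirrhosis replicates 3 and 2, at 207 and 296 CPM, and highest in replicate 5, at 530 CPM. That of 12 stellate cell and myofibroblast markers was highest in replicate 3, at 1364 CPM, and lowest in replicate 5, at 1020 CPM. Replicate 2, at 1151 CPM, lay among replicates 1, 4 and 6, at 1038, 1167 and 1146 CPM. Hepatocyte markers summed to 46435 and 55669 CPM in replicates 2 and 3, the highest of the group, and to 35151 CPM in replicate 5, the lowest. Neutrophil markers summed to 108 CPM in replicate 2 and to 9.04 to 13.1 CPM in the other 5, and macrophage markers were highest in replicate 2, at 662 CPM. Whether a property of these 2 mice or of their samples sets their level was not tested.

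Cirrhosis-PTH and Control overlapped for all 10 genes, beside 3.07% of all genes that lay wholly above Control and 1.4% that lay wholly below. The largest fitted difference was Hspb1, with a log2 change of -0.50 ± 0.53 (95% interval -1.62 to 0.62, adjusted p = 0.63), and the smallest adjusted p was that of Hsph1, at 0.41 for a change of -0.40 (interval -0.97 to 0.17). None of the 10 had an unadjusted p under 0.05 in edgeR, and DESeq2 called none. The intervals of the inducible HSP70 genes were wide, -1.37 to 0.75 for Hspa1a and -1.39 to 0.82 for Hspa1b, so differences of more than 1.5-fold in either direction lie inside them. Without Control replicates 7 and 8 together their fitted changes turned to 0.34 and 0.32. Those of the abundant genes were narrow, -0.24 to 0.47 for Hspa8, -0.36 to 0.16 for Hsp90ab1, -0.43 to 0.11 for Hspd1 and -0.32 to 0.15 for Hspe1. A missed threshold does not show that the groups were the same.

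Neither Hsf1, the main driver of these genes under stress, nor its relative Hsf2 passed. Hsf1 was at 10.1 ± 1.18 CPM in Control, 10.4 ± 1.16 CPM in Cirrhosis and 9.13 ± 1.44 CPM in Cirrhosis-PTH, with log2 changes of 0.05 ± 0.11 (adjusted p = 0.74) and -0.19 ± 0.11 (adjusted p = 0.19). Hsf2 changed by -0.10 (adjusted p = 0.45). HSF1 is controlled mainly by its state as a protein, which RNA counts do not measure. In the HSF family and its regulators 3 of 7 tested genes fell in Cirrhosis and none rose. For this list and those below, the shares over all genes in Cirrhosis are 25.5% higher and 25% lower. In Cirrhosis-PTH against Cirrhosis they are 20.1% higher and 18.6% lower, and counts near these shares set no list apart. Hsf4 fell by 0.44 and Hsbp1, which encodes a small HSF1-binding protein, fell by 0.32.

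Partners of HSP70 and HSP90 did not all move with the chaperones they serve. Of 7 relatives of HSP70 and HSP110, 1 rose in Cirrhosis: Hspa4l, an HSP110 family member, from 15.5 to 29.0 CPM (log2 0.90 ± 0.12). Of 11 exchange factors and partners of HSP70, 1 rose and 5 fell. The one that rose was Bag3, which links HSP70 to autophagy, from 16.9 ± 3.56 to 26.2 ± 5.84 CPM (0.63 ± 0.14), whereas Bag4, which blocks death receptor signals, went from 44.0 ± 6.42 to 19.5 ± 2.27 CPM (-1.18 ± 0.09). In Cirrhosis-PTH Bag3 was at 14.1 CPM (-0.89 against Cirrhosis) and Bag4 at 42.2 CPM (1.11 against Cirrhosis), and neither passed against Control (adjusted p = 0.28 and 0.74).

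Among 14 cytosolic J-domain genes other than Dnajb1, 3 rose and 2 fell in Cirrhosis, with Dnajb5 at 0.65 and Dnaja4 at -0.81 (log2). Of 18 HSP90 co-chaperones 4 rose and 7 fell. Stip1 (HOP), which bridges HSP70 and HSP90, rose by 0.36 and fell by 0.61 in Cirrhosis-PTH, and Chordc1 rose by 0.52 and fell by 0.53. Fkbp8 and Tsc1 went the other way, at -0.62 and -0.53 in Cirrhosis and 0.47 and 0.46 in Cirrhosis-PTH against Cirrhosis. The median change of these 4 lists in Cirrhosis lay between -0.15 and 0.01, against 1.06 for the 10 heat shock protein genes.

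Of the 6 small heat shock protein genes tested besides Hspb1, 2 rose and 1 fell in Cirrhosis. Cryab, the alpha-B crystallin that can form mixed complexes with Hspb1, went from 1.07 to 2.01 CPM (0.91 ± 0.22), and Hspb6 fell from 4.65 to 2.58 CPM (-0.85 ± 0.18). Of 15 genes of the cytosolic chaperonin TRiC and its helper prefoldin, 6 rose and 5 fell. Cct3 and Cct7 rose by 0.42 and 0.45, while Pfdn2 fell by 0.68.

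Of 16 mitochondrial chaperones and proteases 11 fell and 1 rose in Cirrhosis, and 2 fell and 9 rose in Cirrhosis-PTH against Cirrhosis. Trap1, the mitochondrial HSP90, went from 86.0 ± 6.78 to 52.8 ± 4.11 CPM and was at 81.9 ± 6.94 CPM in Cirrhosis-PTH. Dnajc19, part of the import motor, fell by 0.96. Hspa9 (mortalin), the mitochondrial HSP70, was at 270, 268 and 260 CPM and did not pass (-0.01 ± 0.07, adjusted p = 0.93). Hspd1 and Hspe1, like Hspa9, were among the mitochondrial genes that passed in neither direction.

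In the endoplasmic reticulum 7 of 10 chaperone genes rose in Cirrhosis and all 10 fell in Cirrhosis-PTH against Cirrhosis. Hspa5 (BiP), the HSP70 of that compartment, had a larger fitted change than Hspa8 in Cirrhosis, 1.58 ± 0.13 against 1.15 ± 0.17. The ratio of Hspa8 to Hspa5 was 1.40 in Control, against 0.986 in Cirrhosis and 1.82 under PTH. Its log2 value differed by -0.51 in Cirrhosis against Control, which did not pass (exact permutation adjusted p = 0.056), and these groups overlapped. In Cirrhosis-PTH against Cirrhosis it differed by 0.89 (exact adjusted p = 0.0076). Hsp90b1 (GRP94), the HSP90 of that compartment, rose by 0.37 ± 0.11 and fell by 0.71 ± 0.11.

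**Figure D5:**
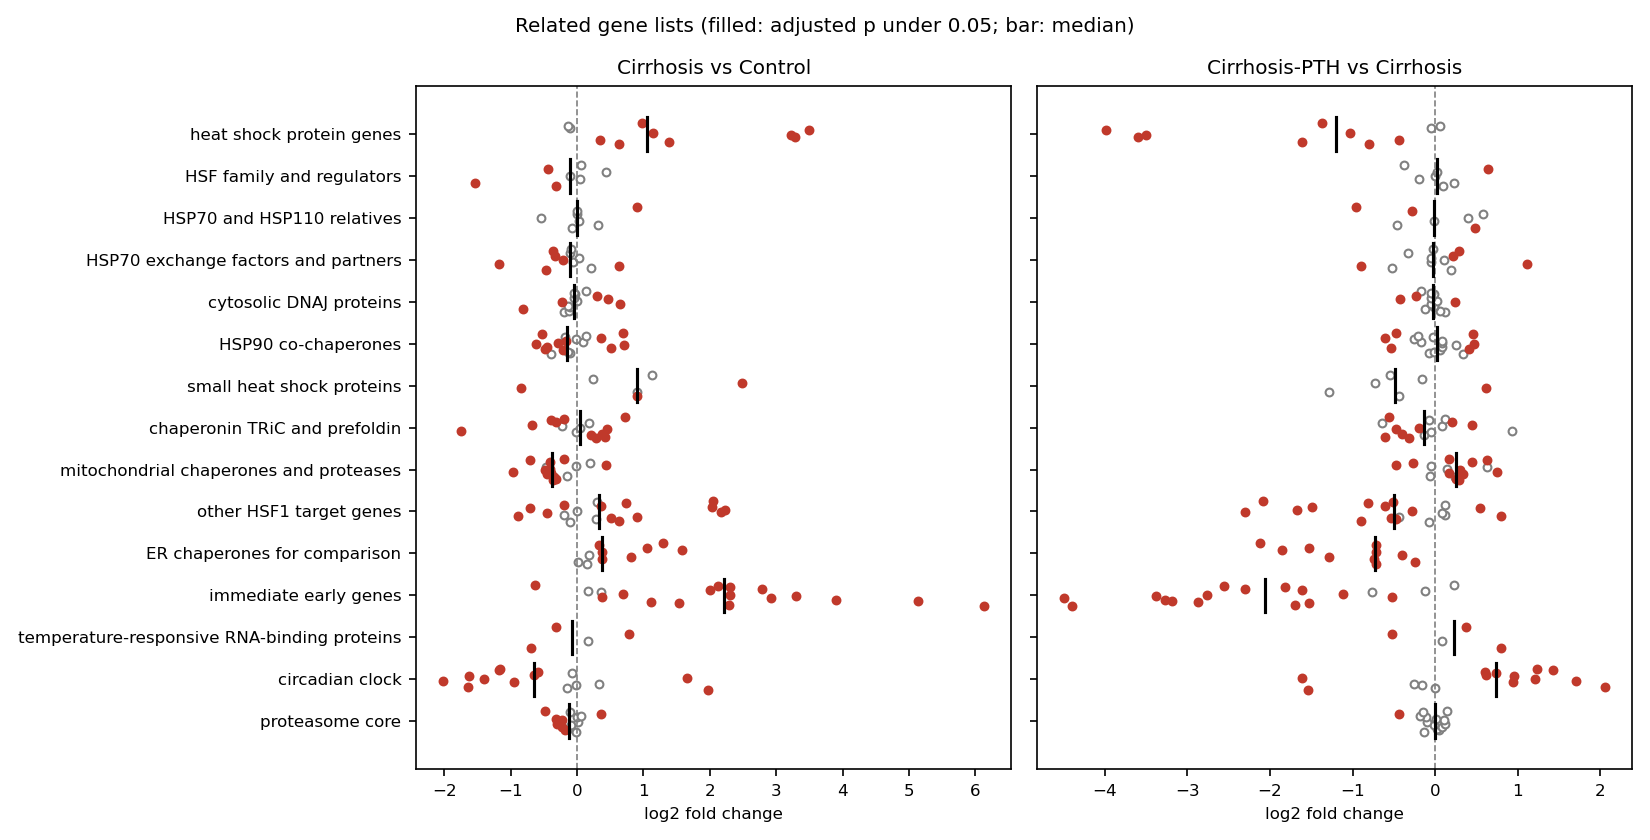
Log2 fold change of each tested gene of the 10 heat shock protein genes and of 14 related lists in Cirrhosis against Control and Cirrhosis-PTH against Cirrhosis, filled where the adjusted p is under 0.05, with a bar at the median. Medians lie at 1.06 and -1.20 for the heat shock protein genes and at 2.21 and -2.06 for the immediate early genes.

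Other genes known as HSF1 targets moved in part with the 10. Of 18, 9 rose and 4 fell in Cirrhosis, and 2 rose and 11 fell in Cirrhosis-PTH against Cirrhosis, 9 of the 18 being members of other lists here as well. Zfand2a (AIRAP), which assists the proteasome under arsenite, went from 7.29 ± 1.41 to 30.04 ± 16.8 CPM and was at 7.09 ± 1.85 CPM in Cirrhosis-PTH. Hmox1, haem oxygenase, went from 13.2 ± 2.91 to 59.6 ± 9.72 and 12.1 ± 1.38 CPM, and NRF2 controls it too. Serpinh1 (HSP47), the collagen chaperone of matrix-producing cells, rose by 2.03 and fell by 1.49. Dedd2 and Mrpl18 fell in Cirrhosis, by 0.89 and 0.71.

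Several other programmes differed between the groups as well, and their part in the heat shock gene result was not tested. Of 18 immediate early genes 15 rose in Cirrhosis and 15 fell in Cirrhosis-PTH against Cirrhosis. Atf3 went from 0.450 to 32.7 CPM. Of 15 circadian clock genes 9 fell and 2 rose, with Dbp at 78.3 ± 9.97 CPM in Control, 19.4 ± 5.55 CPM in Cirrhosis and 63.5 ± 11.2 CPM in Cirrhosis-PTH, and Arntl at 1.38, 5.44 and 1.87 CPM. Of 4 RNA-binding protein genes that respond to temperature, Cirbp, which is made at low temperature, fell by 0.69 ± 0.14 and rose by 0.80 ± 0.14, while Rbm3, made under the same condition, went the other way, at 0.79 ± 0.08 and -0.52 ± 0.08. Of 14 proteasome core genes 1 rose and 6 fell.

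The cell makeup of the tissue also differed, and in whole liver fewer cells of a type and less RNA per cell cannot be told apart. Of 9 hepatocyte markers 8 fell in Cirrhosis (summed level 52446 to 69896 CPM in Control, 35151 to 55669 in Cirrhosis and 51766 to 58092 in Cirrhosis-PTH). Of 12 stellate cell and myofibroblast markers 11 rose (296 to 466.4, 1020 to 1364 and 436 to 937 CPM), and of 12 macrophage markers 10 rose and 2 fell (172 to 283, 447 to 662 and 224 to 262 CPM). All 6 cholangiocyte markers and all 5 neutrophil markers tested rose, as did 4 of 9 markers of T, NK and B cells and 2 of 8 endothelial markers, of which 1 fell. No marker of these 7 sets was at 0 in all libraries of a group. In which cells the heat shock genes changed was not measured, and the part of these shifts in the result was not tested.

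Genes whose level followed the heat shock genes within the groups were sought by Pearson's r over the 18 libraries, after the group mean was taken from each gene, with the mean profile of 6 members (Hspa1a, Hspa1b, Hspa8, Hsph1, Hsp90aa1 and Dnajb1). Among 10752 genes compared, Hsph1 had the highest r, 0.96, but it is part of the profile, which raises its r. Hspb1 (0.88) and Hsp90ab1 (0.86), which are not in the profile, ranked 6 and 12. Hspd1 (0.55) and Hspe1 (0.47) ranked 798 and 1292, and for these the r was -0.48 and -0.68 in Control and 0.82 and 0.71 in Cirrhosis. All points share their libraries and depths, and within Cirrhosis the profile mainly sets replicates 2 and 3 against the other 4, so r is a description.

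Outside the set the highest r were those of Map7d1 (0.91), Sqstm1 (0.89), Dhx32 (0.89), Rhpn2 (0.88), Slc48a1 (0.88), Cep170b (0.87) and Tsc22d2 (0.86). For these genes r ran from 0.90 (Sqstm1) to 0.997 (Slc48a1) within Cirrhosis and from 0.73 (Slc48a1) to 0.93 (Sqstm1) within Control. Within Cirrhosis-PTH it ran from 0.37 (Slc48a1) to 0.86 (Map7d1). Sqstm1, the autophagy receptor p62, was at 203 ± 31.9 CPM in Control, 508 ± 188 CPM in Cirrhosis and 182 ± 25.1 CPM in Cirrhosis-PTH. Dhx32 followed the profile within the groups, least in Cirrhosis-PTH (r = 0.59), but did not pass between Cirrhosis and Control (-0.02, adjusted p = 0.85).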

How the data were processed

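The authors deposited 1 table of raw counts, whole numbers that had not been normalized, for 54752 genes in 18 libraries. The submitters' processing notes name the build GRCm38 and, with no role or order, Trim Galore, cutadapt 4.2, HISAT2 2.2.1, Bowtie2, Bowtie 1.3.1 and StringTie 2.1.5. Whether the counting used strand, and how it treated reads that align to several places, are not given in the sources used here. Both bear on Hspa1a and Hspa1b, on the overlapping ends of Hspd1 and Hspe1, and on the snoRNA genes within Hspa8. Strand also bears on Hspa1a, which the protein-coding gene Gm20481 overlaps on the other strand, while no annotated gene overlaps Hspa1b. Per the labels, ribosomal RNA was removed before library preparation from total RNA.

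The 3 groups were fitted together in edgeR 4.0.16 (R 4.3.3) after filterByExpr and TMM scaling, and tested two-sided with its robust quasi-likelihood test, adjusted over all 21914 genes tested (Benjamini-Hochberg, threshold 0.05). CPM uses the TMM-scaled library size. The TMM factors were 0.578 to 0.930 in Control, 1.21 to 1.37 in Cirrhosis and 0.854 to 1.23 in Cirrhosis-PTH, so Control and Cirrhosis did not overlap. The SE and 95% interval of a log2 change come from the F statistic. Labels name separate mice, so the spread is between animals. In simulated counts with 200 genes changed in Cirrhosis against Control among 21914, the fit recovered 80% of those changed by 1 and 98% of those changed by 2 on the log2 scale, with 11 false calls. In the real libraries 50.5% of genes passed in that comparison, so the simulation does not test the scaling under so wide a shift. Ratios of 2 genes (7 ratios, 3 comparisons, 21 tests adjusted together) were chosen after the values were seen and tested by exact permutation, two-sided, of the 924 arrangements of 6 against 6 libraries (smallest p 0.0022). Gene positions are from GENCODE mouse release 21 on GRCm38.

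The 10 genes, the 14 related lists and the 7 marker sets were chosen with earlier results of these data known. Besides the 10 genes, those named are Hsf1, Hsf2, Hspa5, Hsp90b1, Hspa9, the genes with the largest changes in each list and the 8 with the highest r (1 of which is not reported here), and some list members named after their values were seen (Cryab, Serpinh1). The alternatives were other scaling (RLE), DESeq2, other filters, a fit of 2 groups, no robust step, a replicate block, removal of ribosomal RNA loci, and leaving out libraries. Same-numbered libraries did not deviate together (r from -0.064 to 0.051 over 14 pairs, against -0.090 to 0.108 over the 94 others). The counts thus gave no sign that the numbers pair the mice, but a weak shared batch could be missed.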

Additional observations from a re-analysis of the deposited data

Results flagged for a closer look

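In 30 sets of 6 libraries (10 genes in 3 groups), the lowest or the highest library was compared with its nearest neighbour. In 1 set the gap was large against the whole range of the group. For Hsp90ab1, the constitutive HSP90, Cirrhosis-PTH replicate 6 was lowest at 345 CPM, and the gap took up 0.725 of the range on the log2 scale. Chance alone gives about 1 such set in 20. The same library was among the 2 lowest of its group for all 10 genes. It also had the smallest share of counts on ribosomal RNA loci of all 18 libraries, 31.4%, and the highest TMM factor of its group, 1.23. Whether this bears on its levels was not tested.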

How the results depend on the processing

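The number of the 10 genes past the threshold was 8 in Cirrhosis-PTH against Cirrhosis and 0 in Cirrhosis-PTH against Control under every alternative run, and 7 or 8 in Cirrhosis against Control. The 1 call that was lost was Hsp90ab1 in Cirrhosis against Control: 0.31 (log2, adjusted p = 0.12) with a replicate block, and 0.23 to 0.42 without single libraries. The block changed no other call of the 10 genes, and the replicate numbers mark no shared mouse. It gave 9526 genes past the threshold in Cirrhosis against Control (11073 without it), 8219 in Cirrhosis-PTH against Cirrhosis (8464) and 1354 in Cirrhosis-PTH against Control (1932). In Cirrhosis against Control, Hspa1a reached 3.98 and Hspa1b 3.82 with the block and 3.97 and 3.85 without Control replicates 7 and 8 together, against 3.29 and 3.22. Replicate numbers 7 and 8 occur in Control only, so a block term for each number leaves those libraries no weight in this comparison. The block and the removal of Control replicates 7 and 8 are thus not separate checks. Other causes were not tested.

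Signs that turned were all of changes that did not pass. In Cirrhosis-PTH against Control, Hspa1a was at 0.46 and Hspa1b at 0.40 with the replicate block and at 0.34 and 0.32 without Control replicates 7 and 8 together. Here too the settings are not separate checks, since the block gives no weight to Control replicates 7 and 8. Without those 2, Hsp90ab1 was at 0.0050 and Dnajb1 at 0.0185. Without single libraries the ranges were -0.52 to 0.22 for Hspa1a and -0.56 to 0.15 for Hspa1b, each highest without Control replicate 7, the highest Control library for both. In Cirrhosis-PTH against Cirrhosis they were -0.142 to 0.0575 for Hspd1 and -0.0335 to 0.146 for Hspe1.

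Leaving out single libraries, an alternative chosen for the ratios after seeing the data, gave log2 differences of -0.115 to 0.121 (Cirrhosis-PTH against Control) and -0.193 to 0.0256 (against Cirrhosis) for Hspa1a/Hspa1b, -0.00968 to 0.0541 for Hspd1/Hspe1 in Cirrhosis against Control and -0.0298 to 0.0873 for Hspd1/Hspa9 in Cirrhosis-PTH against Cirrhosis. The Hspa8/Hspa5 ratio ran from -0.605 to -0.393 in Cirrhosis against Control and passed without Control replicate 2 or Cirrhosis replicate 5. Against Control in Cirrhosis-PTH it ran from 0.283 to 0.444 and passed without Control replicate 6 or Cirrhosis-PTH replicate 6, and Hspa8/Hspd1 ran from 0.237 to 0.368 and passed without Control replicate 8.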
